A study of Mus musculus with 16 samples.

Results

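Satellite cells are the stem cells of skeletal muscle, and 10 genes that mark them, drive their differentiation or act on muscle growth are described here in the calf muscle of mice with and without a FoxO deletion. The genes were chosen by name, for these roles, and not by a rule on their measured values. Earlier results of these data were known at that time. The members are Pax7, Cdh15, Megf10, Myf5, Myod1, Myog, Myf6, Myh3, Myh8 and Mstn. They are 10 of the 22180 genes with a probe set of their own on the array. For each gene the probe set with the highest mean over the 16 arrays was used, and all 10 lay above their array's median value in all 16 arrays. Under a stricter filter, at each array's 75th percentile, only 5 of them remained: Cdh15, Myod1, Myog, Myf6 and Mstn. Gastrocnemius, a calf muscle made mostly of fast fibres, was taken at 16 weeks of age from male mice of the FVB/n strain, with 1 array and 1 mouse per sample. The deletion group (n = 8) carried Mx1-Cre, in which the Mx1 promoter drives the Cre recombinase, together with loxP-flanked alleles of Foxo1, Foxo3 and Foxo4, and is labelled a FoxO1,3,4 knockdown. The control group (n = 8) consisted of littermates with the same flanked alleles and no Cre, and is labelled wild type although its FoxO alleles are modified. For both groups the labels give 3 injections of polyinosine:cytidine, an interferon inducer, at 4 to 5 weeks of age, followed from 7 to 8 weeks of age by 8 weeks of a high-fat diet (58% fat, 16.4% protein and, as the remainder, 25.5% carbohydrate).

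The deletion is described in the labels as endothelial directed, but the Mx1 promoter answers to interferon in many cell types. Which cells of these muscles had lost FoxO was not tested. Every deletion mouse carried Cre and no control did, so effects of Cre and of the deletion cannot be told apart. Each array holds the RNA of whole muscle, in which satellite cells are a small minority. Fewer cells of a type and less RNA per cell therefore cannot be told apart for any gene below.

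In resting muscle satellite cells lie between the fibre and its basement membrane and express the transcription factor Pax7. On injury they divide, express the basic helix-loop-helix factors Myf5 and Myod1, then Myog, and fuse into fibres. These fibres at first make the embryonic and perinatal myosins Myh3 and Myh8. Myf6, also called Mrf4, is the member of the same factor family that adult fibres keep expressing. These 4 factors bind the E-box, a short DNA motif, together with partners such as Tcf3, and are held back by Id proteins. Mstn, myostatin, is a secreted protein of fibres that limits muscle growth.

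The promoters of 4 members are shown because the family's binding motif and its partners' motifs can be read in them. Sequences are RefSeq's on GRCm38.p6, from 250 bases before the gene's start to 50 after it, on the strand of the gene. Of the 10 members 7 had an entry. Those without one were Myod1, Myf6 and Megf10. Capitals mark matches to the E-box (CANNTG, which reads the same on both strands), to MEF3 (TCAGGTT, a motif bound by homeodomain proteins such as Six4, either strand) and to MEF2 (either strand). Each sequence follows its gene's name, at chr1:134289754-134290053 (+) for Myog, chr11:67078050-67078349 (+) for Myh3, chr11:67276874-67277173 (+) for Myh8 and chr1:53061390-53061689 (+) for Mstn.
Myog: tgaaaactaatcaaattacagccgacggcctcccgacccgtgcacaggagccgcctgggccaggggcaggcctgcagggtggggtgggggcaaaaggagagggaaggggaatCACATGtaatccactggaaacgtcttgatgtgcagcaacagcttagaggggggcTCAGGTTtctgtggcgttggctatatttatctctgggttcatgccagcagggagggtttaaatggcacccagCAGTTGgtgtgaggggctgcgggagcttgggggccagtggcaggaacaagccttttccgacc
Myh3: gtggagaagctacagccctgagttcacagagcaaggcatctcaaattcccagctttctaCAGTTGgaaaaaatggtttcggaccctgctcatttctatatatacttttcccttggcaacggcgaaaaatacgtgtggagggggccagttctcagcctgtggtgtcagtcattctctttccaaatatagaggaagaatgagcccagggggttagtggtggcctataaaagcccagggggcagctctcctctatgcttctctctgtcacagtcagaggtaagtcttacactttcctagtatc
Myh8: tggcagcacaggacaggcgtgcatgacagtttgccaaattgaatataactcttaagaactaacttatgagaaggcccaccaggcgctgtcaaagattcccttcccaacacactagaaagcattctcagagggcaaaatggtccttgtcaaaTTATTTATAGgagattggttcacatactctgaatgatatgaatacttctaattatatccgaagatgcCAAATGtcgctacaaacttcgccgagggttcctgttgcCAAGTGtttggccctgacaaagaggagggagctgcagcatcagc
Mstn: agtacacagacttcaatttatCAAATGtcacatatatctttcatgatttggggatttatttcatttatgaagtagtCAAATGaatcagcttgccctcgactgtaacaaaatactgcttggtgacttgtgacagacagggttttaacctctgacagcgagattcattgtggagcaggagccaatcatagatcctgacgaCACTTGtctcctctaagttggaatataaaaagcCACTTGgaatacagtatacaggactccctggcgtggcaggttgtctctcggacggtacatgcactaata
Myog held 2 E-boxes, with first bases at positions -138 and -12 from the start, and a MEF3 match at -84. It held 0 full matches to the MEF2 letters searched. Near matches, which depart from a motif in any letter, were not searched for or marked in any window. MEF3 letters occurred in 4.07% of 32851 promoters of this length. Myh8 held 2 E-boxes, at -32 and 7, and a MEF2 match at -99, and MEF2 letters occurred in 3.19% of promoters. A single E-box at -191 was found for Myh3, and 4 for Mstn, at -229, -174, -52 and -19. Cdh15 also held 4, while the windows of Pax7 and Myf5 held 0. E-boxes are common, with 1 or more in 72.3% of promoters. The letters GTAAACA, the core of a FoxO motif, were in none of the 7 windows and in 3.65% of all promoters. These matches describe letters only, and whether a factor is bound there was not tested.

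Values are log2 units of expression, normalized by the authors with RMA, so that 1 unit is a doubling, and they are not compared between genes because probe sets differ in their response. Differences are deletion minus control from limma's test over 13601 genes, with Benjamini-Hochberg adjustment over all of them and a threshold of 0.05. Array medians ran from 4.43 to 4.61. The 9 genes of the skeletal muscle list had mean levels of 12.81 to 12.92 in deletion mice and 12.76 to 12.89 in control mice. Of the targeted genes, none passed the test: the difference was 0.07 for Foxo1 (adjusted p = 0.804), 0.50 for Foxo3 (adjusted p = 0.0762) and -0.24 for Foxo4 (adjusted p = 0.236). Whether these probe sets lie inside the deleted stretch is not given in the sources used here. Alb, which encodes the liver's serum albumin, was above 9 log2 units in 4 deletion and 2 control mice. The leading component of all genes (22.9% of the variance) placed deletion mouse 8 among the controls. The differences of some members without these mice are given below.

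No member passed the test. The count was 0 of 10 at an adjusted p under 0.05, where 1.83% of the 13601 genes passed (1.53% higher and 0.301% lower in deletion mice). The members' adjusted p-values ran from 0.161 for Myod1 to 0.894 for Mstn. At an unadjusted p under 0.05 limma counted 3 of 10, against 17.3% of all genes: Myod1 and Myog on the lower side, where 6.82% of all genes stood, and Myf6 on the higher side, where 10.5% stood. Of the 10 differences 9 were below 0, against 49.8% of all genes. With the arrays centred on their medians the share of all genes below 0 was 64.9%. The median difference of the members was -0.14 log2 units and that of all genes 0.000746. The groups' ranges overlapped for all 10 members, and they did not overlap for 0.243% of all genes on the higher side and 0.11% on the lower.

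**Figure D1:**
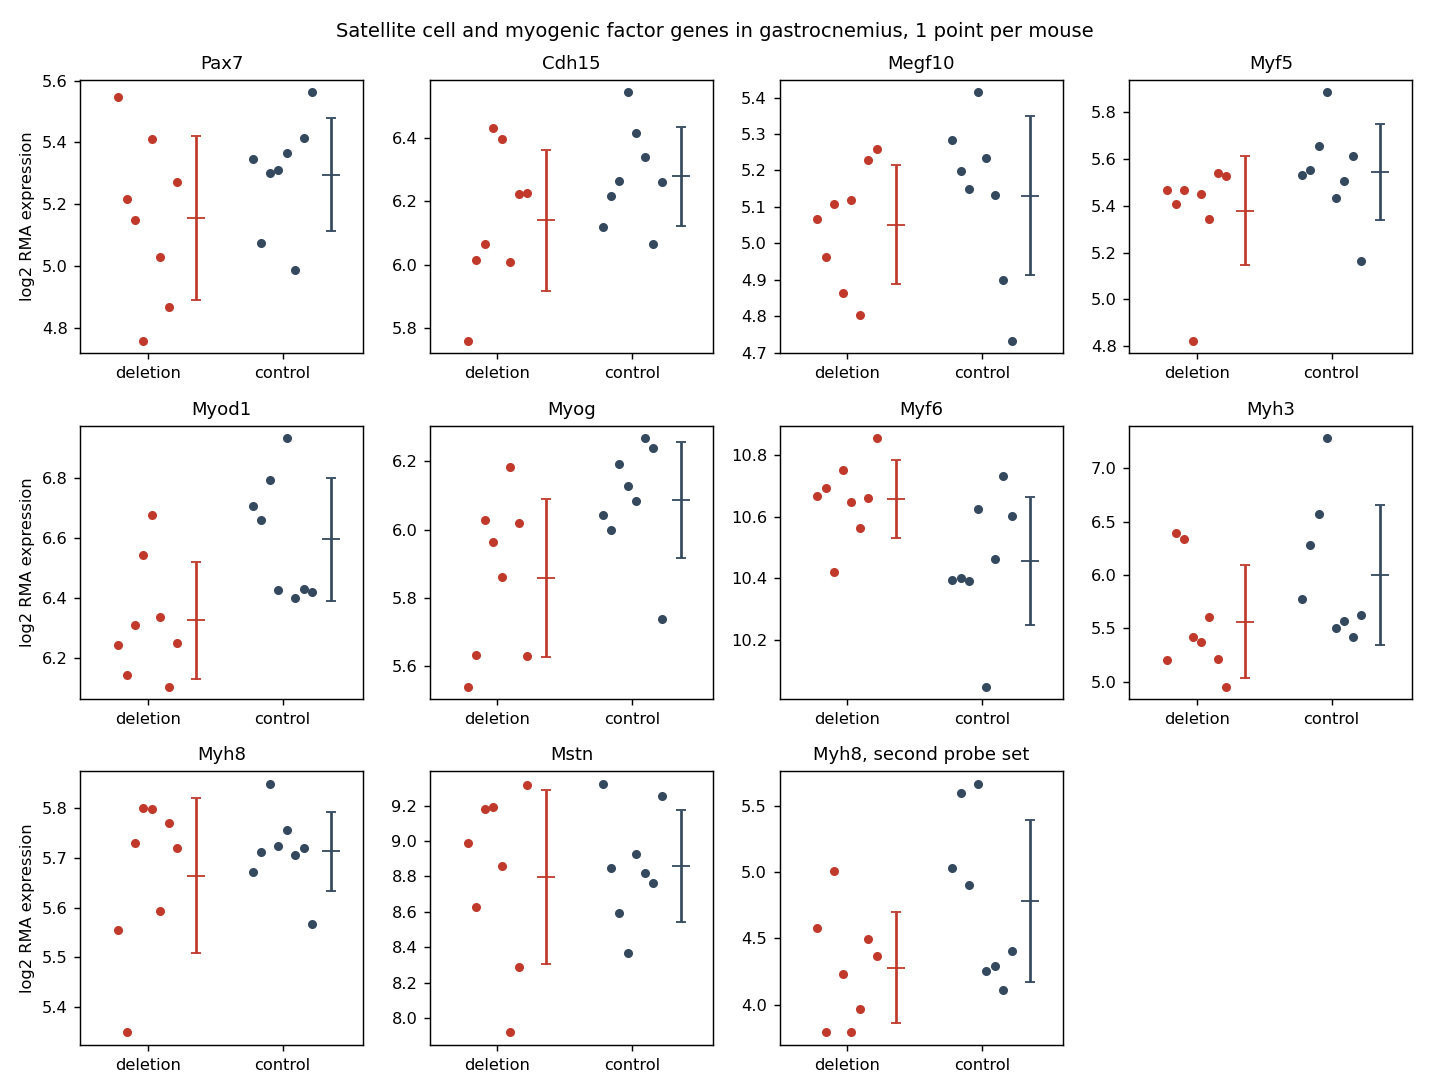
Log2 RMA expression of the 10 members, and of the second probe set of Myh8, with 1 point per mouse, deletion mice on the left and control mice on the right of each panel, with bars for the mean and SD of 8 mice. The ranges overlap in every panel, and Myod1 shows 6 of 8 deletion mice below all controls.

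The satellite cell genes Pax7, Cdh15 and Megf10 had mean differences between -0.14 and -0.08 log2 units, each within an interval that spans 0. Pax7, the transcription factor that satellite cells need to persist, had a lowest, median and highest value of 4.76, 5.18 and 5.55 in deletion mice, against 4.99, 5.33 and 5.56 in control mice. The 2 lowest values were both of deletion mice (4 and 7), and 6 of 8 deletion mice lay below the control median. Its means were 5.16 ± 0.27 and 5.30 ± 0.18 (deletion and control, SD, n = 8 each). The difference was -0.14 (95% confidence interval -0.37 to 0.09, limma adjusted p = 0.530, exact permutation p = 0.239). It was -0.08 without deletion mouse 4, and -0.04 with the mean of 7 Schwann cell genes as a covariate.

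Cdh15 encodes M-cadherin, the adhesion protein that joins a satellite cell to its fibre. It spanned 5.76, 6.14 and 6.43 (lowest, median, highest) in deletion mice and 6.06, 6.26 and 6.54 in control mice. In 3 deletion mice it was below every control, and the other 5 lay inside the control range. The difference was -0.14 (95% confidence interval -0.33 to 0.06, limma adjusted p = 0.464), and -0.08 without deletion mouse 1. Megf10, a transmembrane receptor that in mouse myoblasts keeps cells dividing and undifferentiated, spanned 4.80, 5.09 and 5.26 in deletion mice and 4.73, 5.17 and 5.41 in control mice. Here the lowest value of all 16 was that of control mouse 8, and 6 of 8 deletion mice lay below the control median. Its difference was -0.08 (95% confidence interval -0.28 to 0.12, limma adjusted p = 0.708). Leaving out 1 mouse gave -0.14 (without control mouse 8) to -0.04 (without control mouse 4), and also -0.05 without deletion mouse 4 and -0.04 without deletion mouse 6.

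Among the 4 basic helix-loop-helix factors, the early and middle ones lay lower and the adult one higher in deletion mice, without passing the adjusted test. Myf5, the first of the family to be expressed in the embryo, spanned 4.82, 5.46 and 5.54 in deletion mice and 5.16, 5.54 and 5.89 in control mice. All 8 deletion mice lay below the control median, but 7 of them lay between 5.34 and 5.54 and deletion mouse 4 was far below them, at 4.82. The difference was -0.17 (95% confidence interval -0.38 to 0.05, limma adjusted p = 0.425), and -0.09 without that mouse.

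Myod1, the factor that commits cells to the muscle lineage and is turned on when satellite cells activate, was the member with the smallest p. It was 6.24, 6.14, 6.31, 6.54, 6.68, 6.33, 6.10 and 6.25 in deletion mice 1 to 8, against 6.71, 6.66, 6.79, 6.43, 6.93, 6.40, 6.43 and 6.42 in control mice 1 to 8. Of the deletion mice 6 lay below every control, and the other 2 (mice 4 and 5) lay inside the control range. Means were 6.32 ± 0.19 in deletion mice and 6.60 ± 0.21 in control mice (SD, n = 8 each). The difference was -0.27 (SE 0.10, 95% confidence interval -0.47 to -0.07), that is -17.1%. Its p was 0.0116 before adjustment, 0.161 after limma's adjustment over all genes and 0.0185 by exact permutation. Leaving out 1 mouse at a time gave -0.32 to -0.22 with adjusted p-values of 0.0923 to 0.259.

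Myog, myogenin, which drives terminal differentiation, was 5.54, 5.63, 6.03, 5.96, 5.86, 6.18, 6.02 and 5.63 in deletion mice 1 to 8, against 6.04, 6.00, 6.19, 6.13, 6.08, 6.27, 6.24 and 5.74 in control mice 1 to 8. Deletion mice 1, 2 and 8 had the 3 lowest values of all 16, and the other 5 fell inside the control range. The difference was -0.23 (SE 0.10, 95% confidence interval -0.43 to -0.02), that is -14.7%, with p = 0.0304 before and 0.236 after limma's adjustment and 0.0429 by exact permutation. Mice 1 and 2 of the deletion group are among those with high Alb, and without the 6 such mice the difference was -0.11 (adjusted p = 0.745).

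Myf6 ran the other way. It was 10.67, 10.69, 10.42, 10.75, 10.65, 10.56, 10.66 and 10.86 in deletion mice 1 to 8, against 10.39, 10.40, 10.39, 10.62, 10.05, 10.46, 10.73 and 10.60 in control mice 1 to 8. The lowest 4 values were all of control mice, with control mouse 5 furthest down, and 7 of 8 deletion mice lay above the control median. The difference was 0.20 (SE 0.09, 95% confidence interval 0.02 to 0.38), that is 14.9%, with p = 0.0313 before and 0.240 after limma's adjustment and 0.0311 by exact permutation. Without control mouse 5 it was 0.14 (adjusted p = 0.365). Myf5 and Myf6 are neighbours on chromosome 10, in that order in the annotation with no gene between them, and their differences had opposite signs.

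**Figure D2:**
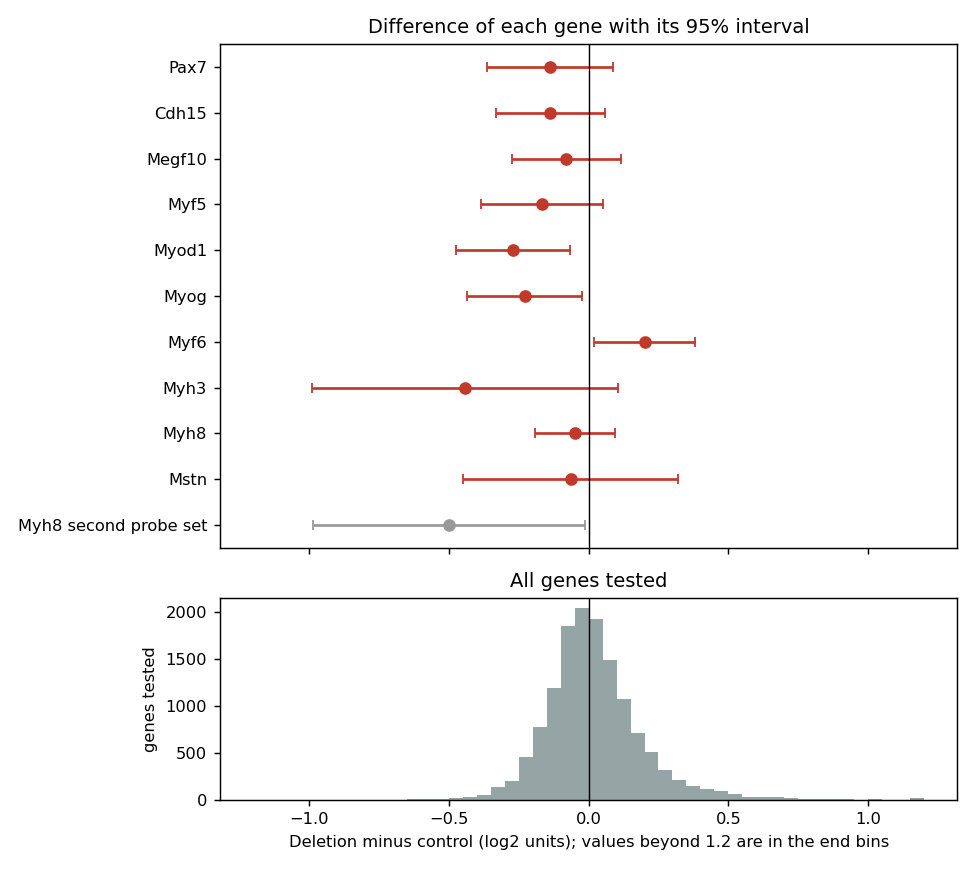
Difference of each member, deletion minus control, in log2 units, with its 95% confidence interval from limma (n = 8 mice per group, the second probe set of Myh8 in grey), above a histogram of the differences of all 13601 genes. Of the 10 members, Myod1, Myog and Myf6 have intervals that exclude 0 before adjustment, and none passes after it.

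Myh3, embryonic myosin, had the largest SD of the 10 members in both groups. It was 5.20, 6.40, 6.33, 5.42, 5.37, 5.60, 5.21 and 4.95 in deletion mice 1 to 8, against 5.78, 6.28, 6.57, 7.28, 5.50, 5.57, 5.42 and 5.62 in control mice 1 to 8. A few mice of both groups stood high, with control mouse 4 the highest, and 5 deletion mice lay below every control. Means were 5.56 ± 0.53 in deletion mice and 6.00 ± 0.66 in control mice (SD, n = 8 each). The difference was -0.44 (95% confidence interval -0.99 to 0.11, limma adjusted p = 0.392), and -0.26 without control mouse 4.

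Myh8, perinatal myosin, had 2 probe sets, which did not give the same picture. The one used spanned 5.35, 5.73 and 5.80 in deletion mice and 5.57, 5.72 and 5.85 in control mice, with a difference of -0.05 (95% confidence interval -0.19 to 0.09, limma adjusted p = 0.761). That difference was -0.0038 without deletion mouse 2 and -0.03 without control mouse 3. The dimmer one, above the array median in 6 of 16 arrays and so under the filter, spanned 3.79, 4.30 and 5.00 in deletion mice and 4.11, 4.65 and 5.66 in control mice. Its difference was -0.50 (95% confidence interval -0.99 to -0.01), with an unadjusted p of 0.0444, an adjusted p of 0.356 over all probe sets and an exact permutation p of 0.0785. This second reading was examined after the data were seen. Myosin genes are similar in sequence, and how far probes read more than 1 of them was not tested.

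Mstn, which acts through activin receptors and Smad2 and Smad3 to restrain growth, spanned 7.92, 8.92 and 9.32 in deletion mice and 8.37, 8.83 and 9.32 in control mice. Deletion mice 6 and 7 held the 2 lowest values of all 16, and the highest, of control mouse 1, differed from that of deletion mouse 8 only past the second decimal. The difference was -0.06 (95% confidence interval -0.45 to 0.32, limma adjusted p = 0.894), and its sign turned with some mice left out, over a range of -0.14 to 0.06.

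Without the 6 mice with high Alb, 4 deletion and 6 control mice remained. The difference was then -0.36 for Myod1 (adjusted p = 0.285), 0.20 for Myf6 (adjusted p = 0.510) and -0.23 for Pax7. That of Myh3 was -0.53, that of Mstn -0.20 and that of Myf5 -0.06. For Myh8 it was -0.0094 with the probe set used and -0.30 with the dimmer one (adjusted p = 0.750 over all probe sets). No member passed in this smaller set either, in which 53% of all genes had a difference below 0. Without deletion mouse 8 the differences were -0.26 for Myod1, -0.20 for Myog and 0.17 for Myf6.

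Other genes of the satellite cell were read as a list of 23, of which 22 were tested. At an unadjusted p under 0.05 limma counted 11 of the 22, most of them higher in deletion mice, against 17.3% of all genes. Past the adjusted threshold 1 was higher and 0 were lower, 16 had a difference above 0, and the median difference was 0.10. The one past the threshold was Vcam1, an adhesion molecule found on satellite cells and also on activated endothelium. It spanned 6.44, 6.97 and 7.20 in deletion mice and 5.85, 6.02 and 6.41 in control mice, with no overlap. The difference was 0.79 (SE 0.12, limma adjusted p = 0.00406), and 0.68 with the 6 high-Alb mice left out (adjusted p = 0.209). Notch1, the receptor that holds satellite cells in quiescence, had a difference of 0.26 (adjusted p = 0.0706). Cxcr4, a chemokine receptor, had one of -0.35 (adjusted p = 0.126) and Hey1, a target of Notch, one of -0.16 (adjusted p = 0.269).

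Endothelial markers moved with Vcam1 across the same groups. Of 12 endothelial genes 8 rose and 0 fell, among them Erg, an endothelial transcription factor, with a difference of 0.52 (adjusted p = 0.00276). Their mean level was 7.39 to 8.02 in deletion mice and 7.15 to 7.49 in control mice. Of 10 macrophage genes 2 rose (C1qa and Itgam) and 0 fell, with mean levels of 6.41 to 7.88 in deletion mice and 6.16 to 6.94 in control mice. The part of either cell type in the values of Vcam1, Notch1 and the other genes of the satellite cell list was not tested.

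The partners and inhibitors of the basic helix-loop-helix factors were a list of 32, of which 29 were tested, with 0 higher, 1 lower and a median difference of -0.05. The one that fell was Six4, a homeodomain factor that binds MEF3 motifs such as that printed in the promoter of Myog. Six4 was 7.11, 7.73, 7.12, 7.16, 7.49, 7.10, 7.27 and 7.57 in deletion mice 1 to 8, against a lowest, median and highest value of 7.57, 7.70 and 7.80 in control mice. Of the deletion mice 6 lay below every control, and mouse 2 lay well inside the control range. The difference was -0.38 (SE 0.09, limma adjusted p = 0.0395). This call was lost in 13 of 16 fits that left out 1 mouse, over differences of -0.43 to -0.34, and with the high-Alb mice left out (-0.45, adjusted p = 0.197) and in 5 other settings. Of the other members of this list, Tcf4, a dimer partner of the family, had a difference of 0.22 (adjusted p = 0.108) and Id4, an inhibitor, one of 0.30 (adjusted p = 0.176). Kat2b, an acetyltransferase that acts on Myod1 protein, had one of -0.17 (adjusted p = 0.151).

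Among 21 genes of differentiation and fusion 2 rose, 0 fell and the median difference was 0.10. They were Dock1 and Elmo1, which together activate Rac1 in myoblast fusion and also serve cell movement and engulfment in other cells. Dock1 spanned 6.82, 7.18 and 7.33 in deletion mice and 6.49, 6.76 and 6.85 in control mice, a difference of 0.43 (SE 0.08, limma adjusted p = 0.0146). Elmo1 spanned 6.25, 6.53 and 6.64 in deletion mice and 5.95, 6.05 and 6.27 in control mice, a difference of 0.40 (SE 0.07, limma adjusted p = 0.00806). In both, 7 of 8 deletion mice lay above every control. With the mean of the Schwann cell list as a covariate the difference was 0.36 for Dock1 (adjusted p = 0.0896) and 0.33 for Elmo1 (adjusted p = 0.0559), in a fit that called 37 genes in all. That list's mean was 6.25 ± 0.57 in deletion mice and 5.82 ± 0.41 in control mice (SD, n = 8 each). Deletion mice 2, 4, 6 and 7 were at 6.65 to 6.81, and among controls mouse 1 was at 6.79 and the other 7 at 5.51 to 5.81. With the high-Alb mice left out, in a fit of 4 deletion and 6 control mice that called 7 genes in all, the difference was 0.34 for both Dock1 (adjusted p = 0.290) and Elmo1 (adjusted p = 0.256). Mymk, myomaker, the membrane protein that fuses myoblasts, had a difference of -0.28 (adjusted p = 0.202) and Neo1, neogenin, a surface receptor, one of -0.23 (adjusted p = 0.174).

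Other developmental contractile and fetal genes did not pass, with 0 of 7 called, 1 above 0 and a median of -0.16. Chrng, the fetal acetylcholine receptor subunit, had a difference of -0.21 (adjusted p = 0.347) and Tnnt2, cardiac troponin T, which immature muscle also makes, one of -0.31 (adjusted p = 0.357). Nes, the intermediate filament nestin, was the one above 0, at 0.24 (adjusted p = 0.383). Of 4 adult myosins tested 0 passed, and Myh7, the slow myosin, had a difference of 0.62 with a standard error of 0.59 (adjusted p = 0.625), and 0.015 without control mouse 5. The fast myosins Myh2, Myh1 and Myh4 had differences of 0.06, -0.03 and -0.01, of which those of Myh2 and Myh4 changed sign under some settings. Of 5 proliferation genes above the filter 0 passed and 5 were above 0. Mki67, a marker of dividing cells of any type, had a difference of 0.43 (adjusted p = 0.253) and Mcm5, of the replicative helicase, one of 0.20 (adjusted p = 0.282).

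The myostatin pathway list held 23 tested genes of 24, of which 2 rose and 0 fell, with a median of -0.03. Tll1, a tolloid metalloprotease of the family that frees myostatin from its propeptide, spanned 5.23, 5.62 and 6.24 in deletion mice and 4.65, 4.89 and 5.15 in control mice, with no overlap. The difference was 0.84 (SE 0.13, limma adjusted p = 0.00406), and 0.55 with the high-Alb mice left out (adjusted p = 0.164). Bambi, a decoy receptor of the transforming growth factor family, spanned 5.81, 6.22 and 6.33 in deletion mice and 5.42, 5.72 and 5.90 in control mice. It rose by 0.46 (SE 0.09, limma adjusted p = 0.0127). That call was lost with the Schwann cell list as a covariate, at a difference of 0.42 (adjusted p = 0.0792), and when the high-Alb mice were left out, at 0.32 (adjusted p = 0.325). Both genes are also expressed outside muscle fibres, and the shift of the endothelial list stands beside them in the same mice. Its part in their values was not tested. Tll2 had a difference of -0.21 (adjusted p = 0.316) and Inhba, an activin subunit, one of -0.25 (adjusted p = 0.346).

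**Figure D3:**
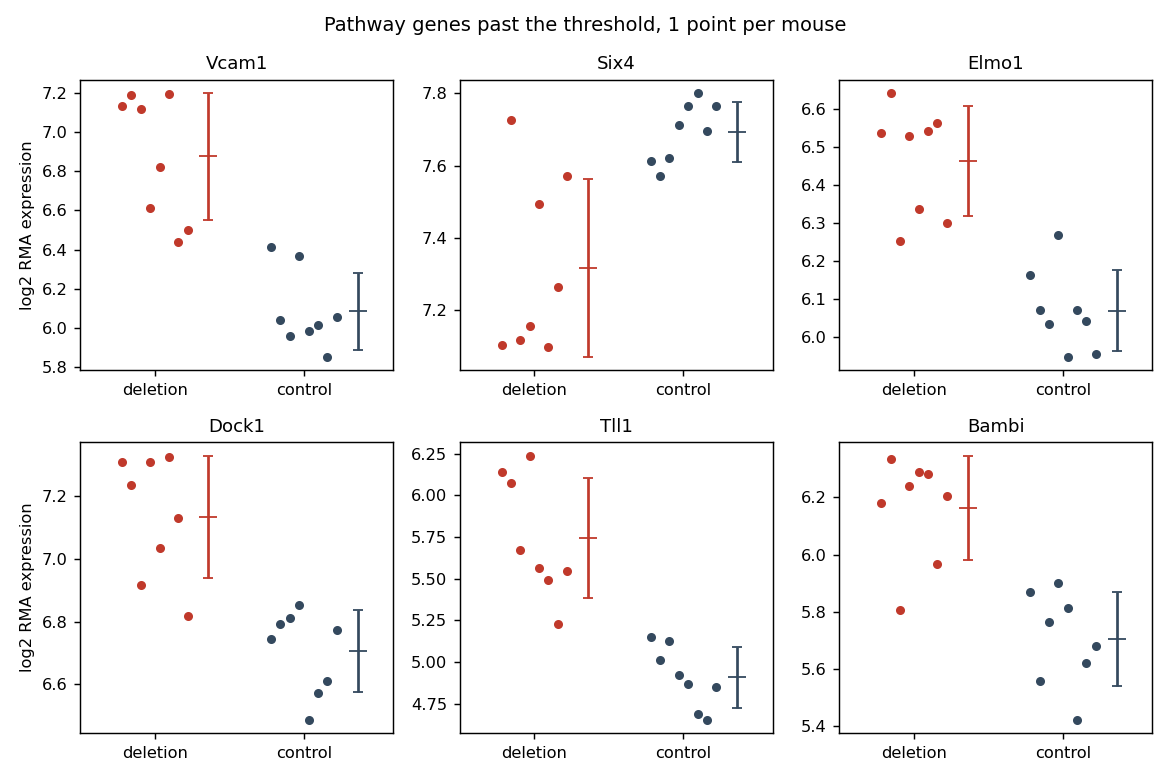
Log2 RMA expression of the 6 pathway genes that passed the test, 1 point per mouse, deletion mice on the left and control mice on the right, with bars for the mean and SD of 8 mice. Vcam1 and Tll1 show no overlap, and Six4 is lower in deletion mice with 2 of 8 inside the control range or at its edge.

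Of 7 tendon markers 0 rose and 2 fell (Fmod, by 0.49, and Kera, by 1.19), and their mean level was 7.10 to 7.80 in deletion mice and 7.57 to 8.22 in control mice. Of 7 denervation genes tested 0 passed, with a median of -0.10, and Chrna1, an acetylcholine receptor subunit that Myod1 and Myog can drive, had a difference of -0.30 (adjusted p = 0.149). Ncam1, an adhesion molecule of denervated fibres and satellite cells, had one of 0.31 (adjusted p = 0.295) and Hdac4, which represses Mef2 targets, one of -0.29 (adjusted p = 0.308). The part of tendon or nerve supply in the members' values was not tested.

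Members did not vary together across mice in a way that passed adjustment. Correlations were computed for 45 pairs over 16 mice after each group's mean was removed, with permutation within groups. None passed, 4 had an unadjusted p under 0.05 and Pearson's r ran from -0.629 to 0.681. The highest was that of Myf5 with Megf10 (r = 0.681, permutation p = 0.00364, adjusted p = 0.164, Spearman's rho = 0.594, permutation p = 0.0199). It was 0.678 in deletion mice and 0.713 in control mice, and 0.498 without deletion mouse 4 and control mouse 8, the farthest from the median of Myf5. The lowest was that of Pax7 with Myog (r = -0.629, permutation p = 0.0174, adjusted p = 0.387, Spearman's rho = -0.653, permutation p = 0.0121). It was -0.685 in deletion mice, -0.520 in control mice and -0.551 without the 2 mice farthest from the median. Myf6 with Myod1 gave r = -0.550 (permutation p = 0.0321, adjusted p = 0.387, Spearman's rho = -0.494, permutation p = 0.0619), with -0.0211 in deletion mice and -0.876 in control mice. It was -0.300 without control mice 5 and 7, the farthest from the median of Myf6. Cdh15 with the probe set used for Myh8 had r = 0.563 (permutation p = 0.0448, adjusted p = 0.387, Spearman's rho = 0.635, permutation p = 0.0147). It was 0.709 in deletion mice, 0.171 in control mice and 0.465 without the 2 farthest mice. With the dimmer probe set of Myh8, Cdh15 had r = 0.00857 (permutation p = 0.973). The neighbours Myf5 and Myf6 had r = 0.039 (permutation p = 0.886), and 0.586 without deletion mouse 4 and control mouse 8.

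**Figure D4:**
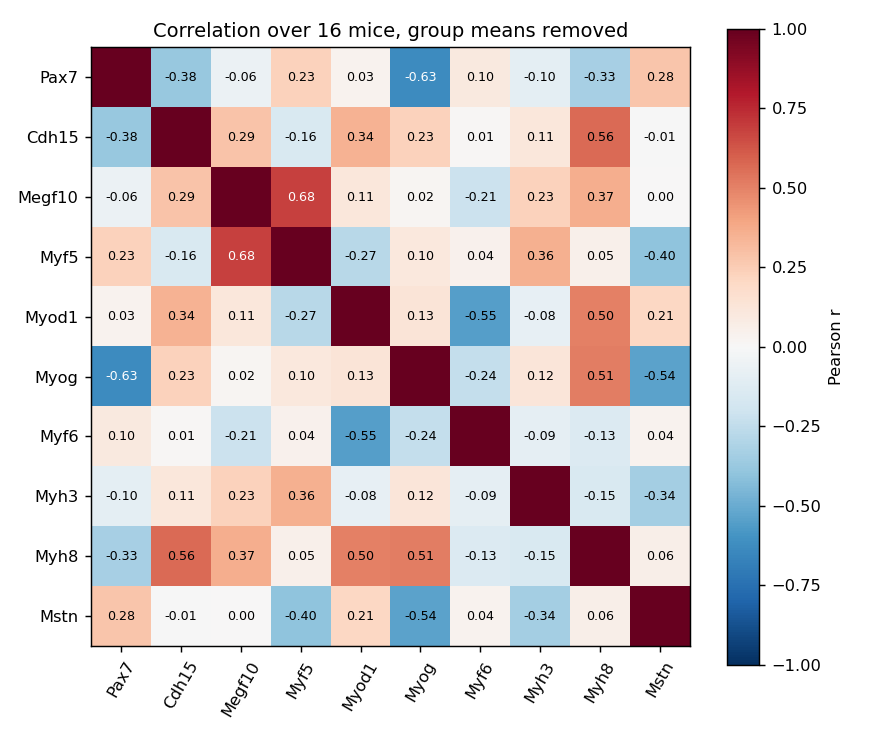
Pearson correlation between members over 16 mice after removal of each group's mean, coloured from -1 to 1 with r printed in each cell. Myf5 with Megf10 (0.68) and Pax7 with Myog (-0.63) are the extremes, and no pair passes adjustment over 45 pairs.

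Myh3 and the probe set used for Myh8 had r = -0.153 over the 16 mice (permutation p = 0.571, adjusted p = 0.992, Spearman's rho = 0.0676, permutation p = 0.811), and 0.271 without control mouse 4 and deletion mouse 2. Myh3 and the dimmer probe set of Myh8 had r = 0.543 (permutation p = 0.0419, adjusted p = 0.210, Spearman's rho = 0.541, permutation p = 0.0443), with 0.00339 in deletion mice, 0.846 in control mice and 0.620 without the 2 farthest mice. The dimmer probe set was highest in control mice 4 and 2, at 5.66 and 5.59, in which Myh3 was 7.28 and 6.28. In deletion mouse 2 the dimmer probe set was at 3.80, while Myh3 was 6.40. The dimmer probe set had r = 0.560 with Megf10 (permutation p = 0.0367, adjusted p = 0.210). With the probe set used for Myh8 it had r = 0.208 (permutation p = 0.399).

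Levels of slow fibre genes varied between mice, and the source of this was not tested. The mean of 9 slow fibre genes ran from 7.55 to 9.25 in deletion mice and from 6.10 to 8.71 in control mice, with control mouse 5 at 6.10. That same mouse had the highest Myod1 and the lowest Myf6 of all 16. Relations of members with the slow fibre, Schwann cell and denervation lists were added after the data were seen, 30 in all, and none passed adjustment. Myod1 had r = -0.520 with the slow fibre list (permutation p = 0.0389, adjusted p = 0.436, Spearman's rho = -0.488, permutation p = 0.0613), and -0.335 without control mouse 5 and deletion mouse 3. Myf6 had r = 0.639 (permutation p = 0.029, adjusted p = 0.436, Spearman's rho = 0.250, permutation p = 0.354), and -0.0548 without those mice, so that relation rests on them. With the slow fibre list as a covariate the group difference was -0.23 for Myod1 (adjusted p = 0.212), -0.24 for Myog and 0.16 for Myf6 (adjusted p = 0.299).

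**Figure D5:**
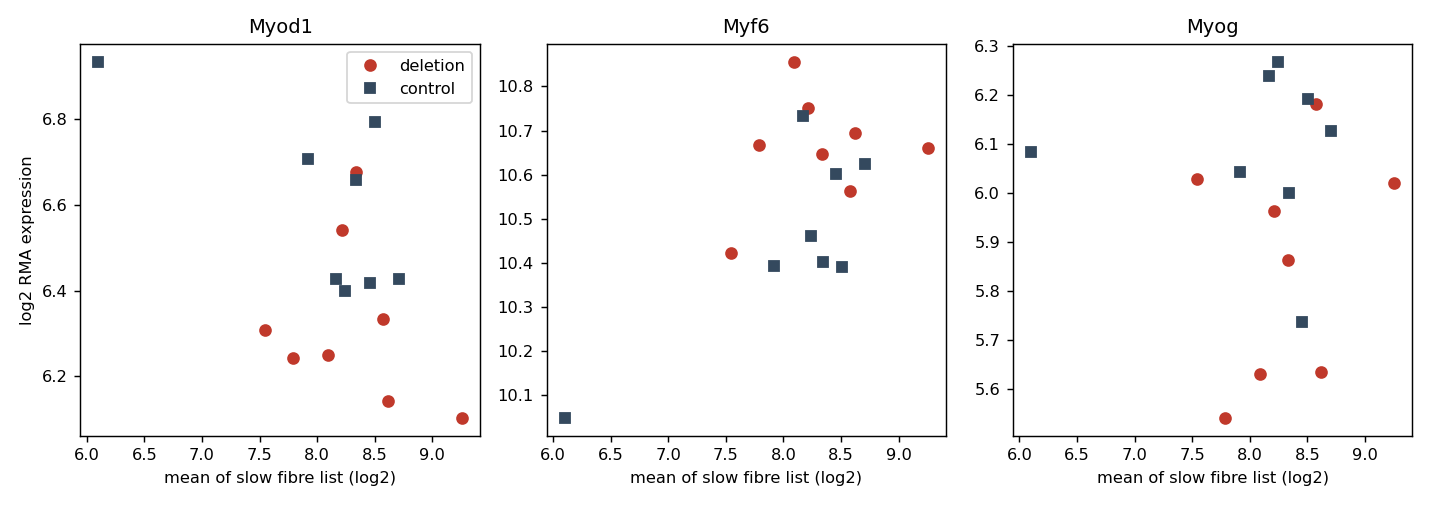
Log2 RMA expression of Myod1, Myf6 and Myog against the mean log2 level of 9 slow fibre genes, 1 point per mouse, deletion mice as circles and control mice as squares. Control mouse 5, at 6.10 on the horizontal axis, is apart from the other 15 mice and holds the highest Myod1 and lowest Myf6.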

How the data were processed

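Total RNA (250 ng) of 16 mice was labelled and hybridised to 16 arrays, as the labels' protocols describe. The authors deposited log2 values, 1 per probe set and array, which per the submitters' processing notes come from RMA as run by the oligo package (versions not given). They ran from 0.33 to 13.84. Since RMA equalises the arrays' distributions, a shift shared by all transcripts would be hidden, and differences of dim probe sets are compressed. No build or scan date of the arrays is given in the sources used here.

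The platform annotation gives a single symbol for 23521 of the 41345 probe sets, several for 1814 and none for 16010, and only the first kind was named. Symbols were updated by Entrez ID for 23328 of them. Probe sets entered the test when 8 or more of the 16 arrays had them above that array's median, and a gene was read from its probe set with the highest mean. This left 13601 genes. Groups were compared with limma 3.58.1 in R 4.3.3, by two-sided tests with lmFit and eBayes. Group was the only term, with Benjamini-Hochberg adjustment, which every adjusted p of a group difference refers to. The threshold was 0.05, and intervals are 95% confidence intervals. Exact permutation tests were two-sided over all 12870 splits of the mice, with a smallest possible p of 1.55e-04. Correlations used 100000 permutations within groups, were two-sided and were adjusted over their family. The number of mice limits the precision.

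The 10 members and the lists were chosen with earlier results of these data known. From each list described, the text names genes by a rule: up to 2 with the smallest p in each direction. Lists given only as counts or levels name fewer. For likeness the 3 genes with the highest r were taken. The same fit was also run on simulated data, with the outcome not given here. Promoters were searched with Python 3.11.15, and figures drawn with matplotlib 3.10.9. Alternatives tried were other filters, centring, quantile normalization, averaged probe sets per gene, each probe set alone, other variance models, array weights, covariates, the replicate number as a block, an adjusted p under 0.10, leaving out each mouse and leaving out the mice with Alb above 9 log2 units.

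Same-numbered mice of the 2 groups were checked for shared deviations. The 8 correlations ran from -0.083 to 0.250 with 4 over 0.1, so the numbers were not taken as pairs.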

Additional observations from a re-analysis of the deposited data

Results flagged for a closer look

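In 22 groups of 8 mice (the members and the second probe set of Myh8, deletion and control), 1 value stood apart from the rest of its group by Dixon's criterion, which chance meets in about 1 of 20 groups. It was Myf5 in deletion mouse 4, at 4.82 log2 units, with the nearest other deletion mouse at 5.34. The gap was 0.728 of the group's whole range. The same mouse had the lowest Pax7 of all 16, 4.76. Without it the difference of Myf5 was -0.09 log2 units, against -0.17 with it.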

How the results depend on the processing

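Of 286 alternative values of the members' differences, 0 passed the threshold, 281 kept their direction and 5 turned it, all 5 of Mstn. The smallest adjusted p was 0.0923, for Myod1 without deletion mouse 5. Mstn was 0.0022 with the slow fibre list and 0.037 with the Schwann cell list as a covariate, and -0.14 to 0.061 with 1 mouse left out. Myh7 was 0.015 to 0.80, Chrng -0.26 to -0.13, Inhba -0.29 to -0.16 and Hdac4 -0.34 to -0.17 with 1 mouse left out. Myh2 was -0.074 with the slow fibre covariate and -0.13 to 0.13 with 1 mouse left out. Myh4 was 0.0028 under quantile normalization, 0.0087 with the slow fibre, 0.0075 with the Schwann and 0.0041 with the liver covariate, 0.021 without the mice with high Alb, and -0.041 to 0.0087 with 1 mouse left out. Myh3 with Myh8 had r = 0.271 and Myf6 with the slow fibre list -0.0548 without the 2 farthest mice. Over all genes 249 passed. The count was 137 with no filter, 452 with the leading residual component, 145 with the slow fibre, 37 with the Schwann and 134 with the liver covariate, 7 without the mice with high Alb, 505 at an adjusted p under 0.10 and 107 to 680 with 1 mouse left out. The split was 208 higher and 41 lower, against 126 and 67 with centring and 155 and 59 under quantile normalization. With the replicate number as a block 213 genes and 0 members passed, and Six4 had an adjusted p of 0.0615. The causes were not tested. The members' 95% intervals were narrowest for Myh8 (-0.19 to 0.09) and widest for Myh3 (-0.99 to 0.11).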

Other observations

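For each member the genes with the most similar pattern were found by Pearson's r over the 16 mice after each group's mean was removed. Predicted genes, Riken clones and genes named only by a sequence identifier were left out of the 13601 searched. This is a description with no test, since the highest of so many values is high by selection. For Pax7 the most similar gene was Chrna3 (0.807). For Myf5 they were Ankrd6 (0.853), Nectin1 (0.819) and Sox7 (0.813). For Myf6 they were Map4 (0.875), Hspb7 (0.834) and Uhrf1bp1l (0.833), and for Myod1 Maf1 (0.822), Dusp7 (0.814) and Rnf215 (0.799). Myog was most like Rnf26 (0.804), Cdh15 most like Polr2j (0.897), Megf10 most like Skp1 (0.771) and Myh3 most like Abhd12 (0.851). Myh8 was most like Fam181a (0.902). Mstn had the highest values, with Zfp386 (0.941), Nmrk1 (0.926) and Tor1aip1 (0.890). No gene among these is another member or a gene of the lists.

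Mstn with the slow fibre list had r = -0.452 (permutation p = 0.0619) and Spearman's rho = -0.682 (permutation p = 0.00472, adjusted p = 0.142 over 30 relations), and r = -0.651 without the 2 mice farthest from the median. Myh3 with the denervation list had r = 0.519 (permutation p = 0.0643) and rho = 0.635 (permutation p = 0.0131), and r = 0.705 without the 2 farthest mice. Pax7 with the Schwann cell list had r = -0.502 (permutation p = 0.0726) and rho = -0.571 (permutation p = 0.0361), with -0.791 in deletion mice, 0.0802 in control mice and -0.654 without the 2 farthest. None of the 30 passed adjustment.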
